A study of Mus musculus with 19 samples.

Results

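The genes described here encode the nuclear subunits of respiratory complexes II to V, the enzymes that pass electrons from succinate and coenzyme Q to oxygen and make ATP in mitochondria. They were taken by symbol from the deposited gene table: Sdha to Sdhd, Cyc1, and every symbol starting with Uqcr, Cox4 to Cox8 or Atp5, without pseudogenes. This gave 46 of 14707 genes, 4 of complex II, 9 of complex III, 16 of complex IV and 17 of complex V. A gene was tested when its mean value over the 19 libraries reached 10, which 45 of the 46 did. The exception was Cox6b2, whose values ran from 0.97 to 16.0 with a mean of 4.94, and the tested subunit nearest to that limit was Cox4i2, with a mean of 22.0.

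RNA was sequenced from hind-limb muscle of male mice of a strain the labels spell C657Bl/6J, in 19 libraries from a design that crossed age with diet. Young lean (n = 4) and young obese (n = 5) mice were 6 months old, and aged lean (n = 5) and aged obese (n = 5) mice were 20 to 21 months old. Fat supplied 12% of the calories of the lean diet and 60% of those of the high-fat diet, and the labels name no mutation, transgene or drug in any group. The sample labels name gastrocnemius and single-end reads, while the series' design text names tibialis anterior, paired-end reads and 21 to 24 months for aged mice. The 2 sources cannot be reconciled from the files, and the sample labels were followed. The general muscle markers Acta1, Ckm, Des and Mb were high in every library, with Acta1 between 521200 and 790000, and no marker fixed here separates gastrocnemius from tibialis anterior. Whether each library stands for a separate animal is not stated, so a p-value covers only the spread among the libraries at hand, and replicate numbers only name libraries.

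Complex II, succinate dehydrogenase, also works in the citrate cycle and is the only one of these complexes encoded wholly in the nucleus. Complex III hands electrons from coenzyme Q to cytochrome c, complex IV (cytochrome c oxidase) hands them to oxygen, and complex V (ATP synthase) turns the resulting proton gradient into ATP. Several complex IV subunits come as a muscle form and a widely expressed form, and slow oxidative fibres hold more of the whole machinery than fast fibres. No mitochondrially encoded gene is among the rows of the table, so the mitochondrial subunits of complexes III to V were not analysed here.

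All values below are the authors' normalized gene-level values unless a sentence names another scale. The estimated depth, in units of 1e6 reads, was 15.1 to 17.8 per library (median 16.3). On that scale most subunits were abundant. The mean over 19 libraries ran from 2474 (Sdhd) to 11588 (Sdha) in complex II and from 1867 (Uqcrh) to 10669.8 (Uqcrc1) in complex III. It ran from 888 (Atp5md) to 39789.6 (Atp5b) in complex V. Complex IV had the widest range, from 4.9 (Cox6b2) to 16108 (Cox6a2), with Cox4i2 at 22.0 and Cox7c at 189. Divided by transcript length, so that genes can be set beside each other, Cox6a2, the muscle form of a complex IV subunit, was highest at 23690 ± 2320 per kilobase (SD over 19 libraries). Atp5b, the catalytic beta chain of ATP synthase, followed at 20770 ± 1890 and Atp5a1, its alpha chain, at 13120 ± 1330. The ranges of Cox6a2 (18620 to 26930) and Atp5b (16540 to 24640) overlapped, so their order does not exceed the spread between libraries. The fourth was Cox5a, a nuclear subunit of complex IV, at 9078 ± 1150, and its highest library (11250) lay above the lowest of Atp5a1 (10170). At the low end stood Cox8a (1135 ± 141), Cox6a1 (789 ± 153), Cox7c (351 ± 48.4), Cox4i2 (30.3 ± 10.4) and Cox6b2 (8.93 ± 6.42).

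Reads of some subunits can be shared with other genes that hold a near-identical stretch. Whether such a gene is a copy elsewhere in the genome or overlaps the subunit's own locus was not examined. By comparison of transcripts in GENCODE M21, 21 of 46 subunits have at least 100 bases at 95% identity or more in another gene, 25 have none, and in 10 such stretches cover over 50% of the transcript. The clearest case is Cox7c, a small complex IV subunit, which was listed at a mean of 189 while its copy Gm12338 was listed at 4327. Cox7c held 3.33 to 5.73% of their summed value, so its level is uncertain. The others over 50% are Uqcrb, Atp5c1, Atp5g1, Atp5g2, Atp5pb, Atp5h, Atp5o, Atp5k and Atp5l. Cox5b, which passed the test in a comparison further on, has 45.1% of its transcript in another gene. Uqcrc1 and Cox7a1, which also passed in a comparison, have no such stretch.

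The subunits were high or low together from library to library. The mean log2 deviation of the 45 tested subunits from their own means was 0.24 in young lean 1, against -0.033, -0.13 and -0.11 in the other young lean libraries. Young lean 1 was the highest of its group for 40 of 45 subunits. Among young obese libraries the same mean was 0.25, 0.12, -0.073, 0.14 and 0.20, and young obese 3 was the lowest of its group for 38 of 45 subunits. Aged lean libraries stood at -0.33, -0.058, 0.038, -0.098 and 0.042, and aged lean 1 was lowest for 42 of 45. Aged obese libraries stood at -0.041, -0.15, -0.061, -0.066 and 0.12, and aged obese 5 was highest for 43 of 45. Each group thus held at least 1 library at the edge of its group for most subunits. Only the library named for each group was counted, and only at 1 edge, so other libraries may also lie at an edge for most subunits.

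**Figure D1:**
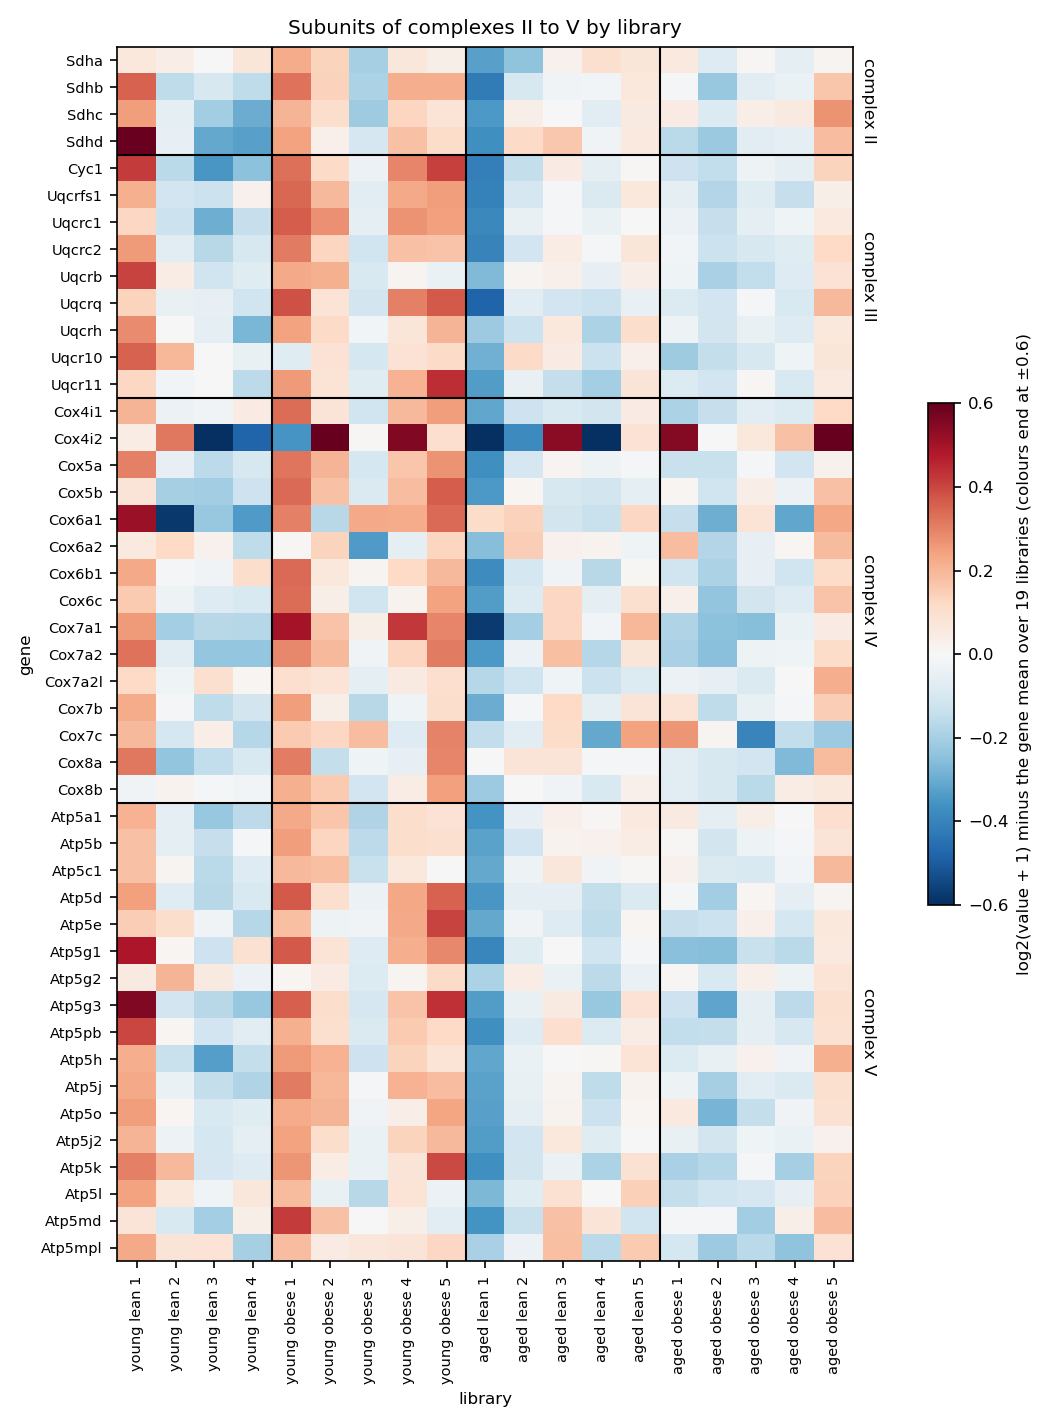
Each cell is the log2(value + 1) of 1 tested subunit in 1 library minus the gene's mean over 19 libraries, with genes in rows by complex and libraries in columns by group. Whole columns are red or blue: young lean 1 and most young obese libraries are high, and aged lean 1 is low, in nearly every row.

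Over the 19 libraries, after group means were taken out, the median correlation of a subunit with the mean of the other subunits was 0.89, and 31 of 45 were above 0.8. The libraries share 1 scaling factor for all genes, so this is a description with no test. Atp5j, in the peripheral stalk of ATP synthase (r = 0.97), and Uqcrc2, a core protein of complex III (r = 0.97), followed the mean most closely. The lowest were Cox7c (0.28), Cox6a1, the widely expressed partner of Cox6a2 (0.47), and Cox4i2 (0.51). Cox7a2l and Atp5g2 had the smallest spread within groups, with SDs of 0.083 and 0.083 on the log2 scale. Cox7a2l is known as a factor that joins complexes III and IV into supercomplexes, a role not examined in these mice. Atp5g2 is a gene for the c ring of ATP synthase. The median within-group SD was 0.15 for the subunits and 0.20 for all 13367 genes tested.

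Because the subunits moved together, their promoters were read for motifs of 4 factors known to bind genes of the respiratory chain. RefSeq promoter windows (GRCm38.p6, 250 bases before to 50 after the start site) were at hand for 35 of 46 subunits, in 38 windows. The NRF-1 motif, GCGCA and GCGC with any 1 base between them, on either strand, was in 10 of 38 windows (26.3%), beside 9.4% of the windows of tested genes and 4.6% of all windows. The GABPA motif CCGGAAG was in 13 (34.2%, beside 16.4% and 8.9%), the ERR motif AAGGTCA in 5 (13.2%, beside 3.2% and 4.7%) and the YY1 motif AAGATGG in 4 (10.5%, beside 6.8% and 6.3%). The median GC content was 56.5% in these windows and 60.7% in those of tested genes. The windows below belong to the 3 subunits that passed the test in a comparison further on (Uqcrc1, Cox5b and Cox7a1) and to Cox6a1, the subunit of lowest co-movement among those with a promoter and no near-identical copy. Capitals mark motif matches, and a match is no proof of a binding site.
Uqcrc1, chr9:108936398-108936697, plus strand: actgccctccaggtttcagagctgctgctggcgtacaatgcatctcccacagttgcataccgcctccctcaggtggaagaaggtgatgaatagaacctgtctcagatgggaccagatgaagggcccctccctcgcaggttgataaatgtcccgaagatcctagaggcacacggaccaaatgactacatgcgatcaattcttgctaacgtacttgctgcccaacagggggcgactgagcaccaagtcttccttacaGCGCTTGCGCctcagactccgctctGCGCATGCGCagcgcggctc
Cox5b, chr1:36691237-36691536, plus strand: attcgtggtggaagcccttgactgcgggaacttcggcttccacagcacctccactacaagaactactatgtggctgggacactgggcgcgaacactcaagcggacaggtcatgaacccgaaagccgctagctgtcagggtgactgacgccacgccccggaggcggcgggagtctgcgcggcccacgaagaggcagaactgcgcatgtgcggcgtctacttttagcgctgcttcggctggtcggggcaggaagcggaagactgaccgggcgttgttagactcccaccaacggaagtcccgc
Cox7a1, chr7:30183921-30184220, plus strand: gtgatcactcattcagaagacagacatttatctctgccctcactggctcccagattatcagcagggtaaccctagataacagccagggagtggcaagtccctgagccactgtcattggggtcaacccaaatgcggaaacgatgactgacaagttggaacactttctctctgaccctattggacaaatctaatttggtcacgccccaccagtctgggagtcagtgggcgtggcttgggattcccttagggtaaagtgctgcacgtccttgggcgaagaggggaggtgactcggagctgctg
Cox6a1, chr5:115348909-115349208, minus strand: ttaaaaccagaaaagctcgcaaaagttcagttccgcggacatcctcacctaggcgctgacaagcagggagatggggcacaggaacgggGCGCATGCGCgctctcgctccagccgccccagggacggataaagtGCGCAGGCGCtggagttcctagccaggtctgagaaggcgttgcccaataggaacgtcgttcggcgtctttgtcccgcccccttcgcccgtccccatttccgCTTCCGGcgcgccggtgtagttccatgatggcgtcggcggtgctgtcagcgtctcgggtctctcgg
Uqcrc1 held 2 NRF-1 matches just after its start site, Cox6a1 held 2 NRF-1 matches and 1 GABPA match before it, and the windows of Cox5b and Cox7a1 held none of the 4 motifs.

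Across the groups, the subunits sat slightly higher in young obese muscle than in the others, and 3 passed the test in some comparison. On the high-fat diet in young mice, 2 of 45 rose and none fell, Uqcrc1 and Cox5b, while 11.0% of all genes tested passed in either direction. The change was positive for 41 of 45, with a median of 0.14 on the log2 scale against 0.0078 over all genes. At an unadjusted p under 0.05, 7 of 45 were higher and none lower, beside 14.6% of all genes higher and 14% lower. With age on the high-fat diet, 1 of 45 fell, Cox7a1, and none rose, against 9.02% of all genes. The change was negative for 42 of 45, with a median of -0.17 against -0.00064. At an unadjusted p under 0.05, 20 of 45 were lower and none higher, beside 13.5% of all genes lower and 12.9% higher. These 2 comparisons share the 5 young obese libraries and so are not independent. The subunits also moved together from library to library, so the 45 are not separate trials. Their counts by sign or by unadjusted p are descriptions and hold no test of the set. In bulk RNA, fewer cells of a type and less RNA per cell cannot be told apart. The test was limma on log2(value + 1), with p-values adjusted by the Benjamini-Hochberg method over all 13367 genes and a threshold of 0.05, and 2 of 45 and 1 of 45 are smaller shares than those of all genes.

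In the other comparisons no subunit passed limma's test. For the diet in aged mice the count was 0 of 45, where 0.292% of all genes passed. None had an unadjusted p under 0.05, beside 5.71% of all genes higher and 5.68% lower, and the median change was 0.043, which became -0.016 without aged lean 1. For age on the lean diet it was 0 of 45, where 4.08% of all genes passed. At an unadjusted p under 0.05, 3 of 45 were lower, beside 10.2% of all genes, and the median of -0.063 became 0.0049 without young lean 1. Aged obese muscle against young lean muscle gave 0 of 45, where 5.58% of all genes passed. At an unadjusted p under 0.05, 2 of 45 were lower, beside 10.1% of all genes. The median was -0.034 with 12 of 45 positive, and without young lean 1 it was 0.045 with 28 of 45 positive. For the interaction, the diet change in aged minus that in young mice, 0 of 45 passed where 2.98% of all genes did, and the median was -0.089. At an unadjusted p under 0.05, 1 of 45 was lower, beside 11.9% of all genes. The 95% interval of a subunit's change reached a median of 0.21 to each side for the diet in young mice, 0.20 for the diet in aged mice and 0.29 for the interaction, all on the log2 scale. These intervals are not adjusted for the number of genes tested, so they set no limit of detection, and some larger changes given below did not pass.

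**Figure D2:**
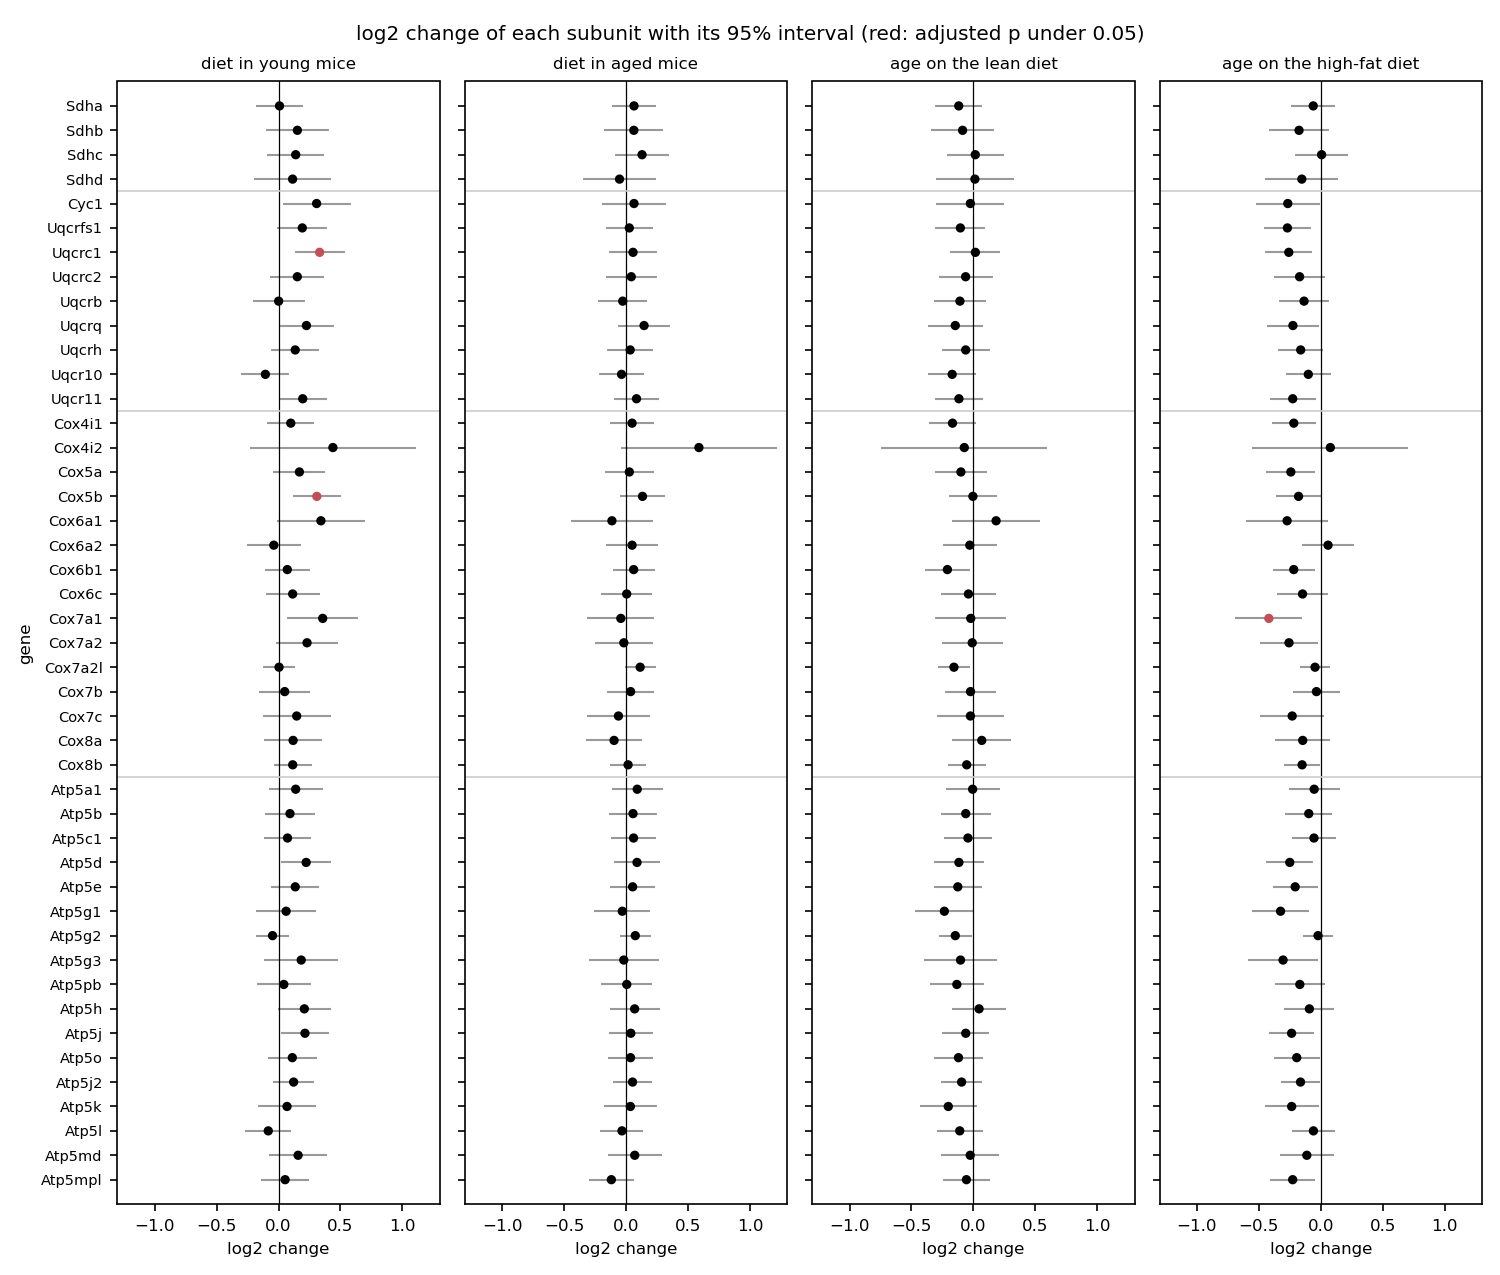
Points are the log2 change of each of 45 tested subunits with its 95% interval (lines), in 4 comparisons, ordered by complex, with red for an adjusted p under 0.05. In young mice 41 points lie right of 0 and with age on the high-fat diet 42 lie left of it, and 2 and 1 points are red.

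Complex II showed no subunit past the test in any comparison. Sdha, the flavoprotein that oxidizes succinate, was at 12059, 11869, 11519 and 12136 in young lean muscle and at 13473, 12667, 10050.5, 12082 and 11818 in young obese muscle. The groups overlapped with nearly the same mean (11900 ± 275, SD, n = 4, and 12020 ± 1270, n = 5), and the log2 change was 0.0083 (95% interval -0.18 to 0.20). In aged lean muscle Sdha was at 9195, 9753, 11746, 12328 and 12149.9, and in aged obese muscle at 12018, 10935, 11602, 11085 and 11691. The 2 low values are aged lean 1 and aged lean 2, and the groups overlapped (log2 change 0.065, SE 0.086).

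Sdhb, which carries the iron-sulfur clusters of complex II, stood at 7894 in young lean 1 and at 5549 to 5777 in the other young lean libraries. Its young obese values of 7726, 6784, 5409.9, 7180.4 and 7175 lay mostly between these. The log2 change was 0.15 (SE 0.12, adjusted p = 0.43 by limma). The membrane anchors Sdhc and Sdhd were at 0.14 and 0.11 in the same comparison. With age on the high-fat diet Sdha was at -0.062, Sdhb at -0.18, Sdhc at 0.0055 and Sdhd at -0.15 on the log2 scale.

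In complex III the largest diet change was that of Uqcrc1, a core protein of the matrix side. It was at 11524, 9671, 8622 and 9602 in young lean muscle and at 13604, 12815, 10208, 12763 and 12568 in young obese muscle. All young obese libraries but young obese 3 lay above every young lean library, and young lean 1 was the highest of the lean ones. Uqcrc1 rose 1.26-fold (log2 0.33, SE 0.097, adjusted p = 0.0343 by limma, n = 5 and 4). In aged mice it was at 8104, 10269, 10536, 10307 and 10558 on the lean diet and at 10341, 9604, 10204, 10408 and 11018 on the high-fat diet. The aged groups overlapped, at a log2 change of 0.057 (95% interval -0.13 to 0.25). The interaction for Uqcrc1 was -0.27 (SE 0.13, adjusted p = 0.22 by limma), so a difference between the ages was not shown.

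Cyc1, cytochrome c1, which passes electrons on to cytochrome c, had a similar layout with more spread. In young lean muscle it was at 7382, 4944, 4334 and 4659.5, and in young obese muscle at 6952, 5979, 5399, 6769 and 7341. Every young obese library lay above young lean 2, 3 and 4, and young lean 1 lay above all of them. The log2 change was 0.31 (SE 0.13, adjusted p = 0.13 by limma). Aged lean values were 4164, 4998, 5718, 5330.4 and 5557 and aged obese values 5074, 4982, 5406, 5332 and 6059.8, which overlapped (log2 change 0.065, SE 0.12).

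Uqcrfs1, the Rieske iron-sulfur protein, was at 6965, 6273, 5225, 6412 and 6531 in young obese muscle and at 5281, 4852, 5219, 4987 and 5614 in aged obese muscle. Only young obese 3 lay within the aged range. The log2 change with age on the high-fat diet was -0.27 (SE 0.091, adjusted p = 0.067 by limma), beside 0.19 for the diet in young mice and -0.11 on the lean diet, which was -0.033 without young lean 1. Of the 5 small subunits, 4 were positive for the diet in young mice and all 5 negative with age on the high-fat diet, with medians of 0.13 and -0.16. Uqcr10 was the exception in young mice, at -0.11 (95% interval -0.30 to 0.087).

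**Figure D3:**
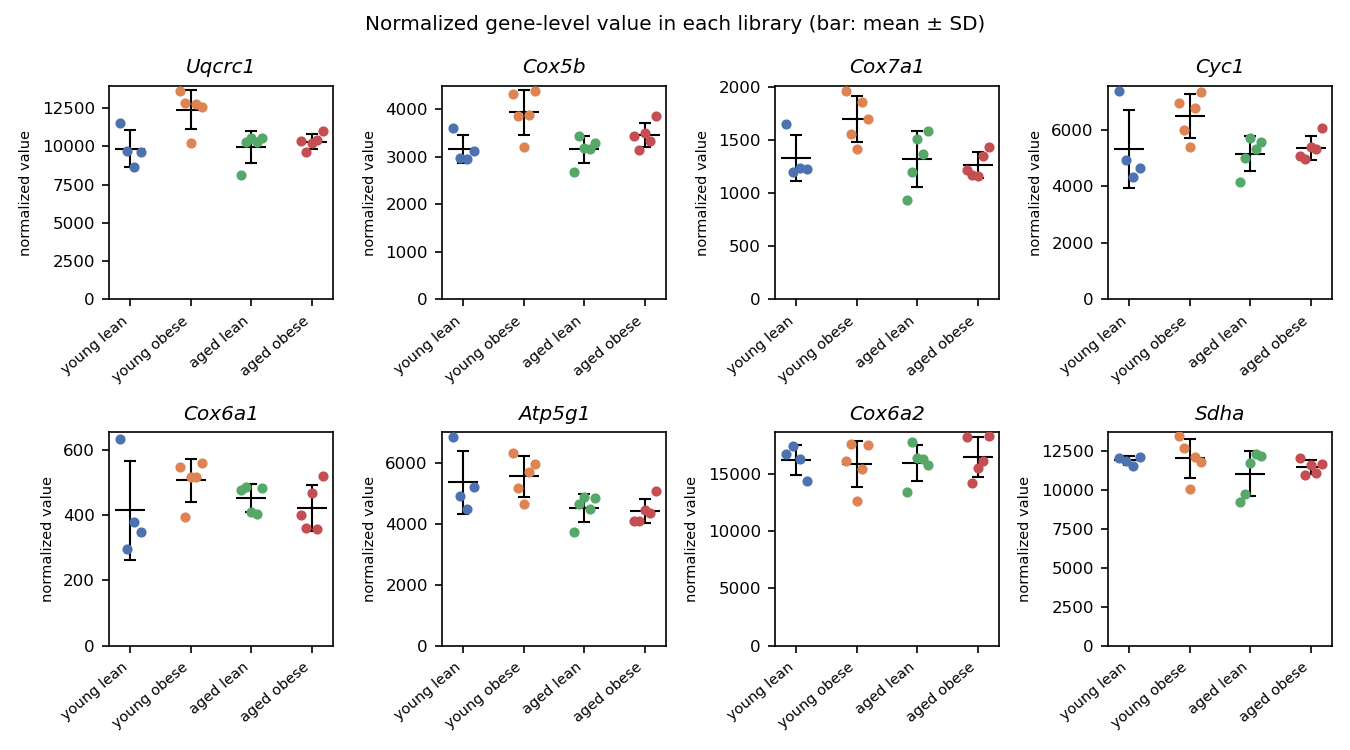
Points are the normalized value in each library for 8 subunits, by group, with the group mean ± SD as black bars and every axis starting at 0. Young obese libraries are highest on average for Uqcrc1, Cox5b, Cox7a1 and Cyc1, groups overlap in every panel, and young lean 1 sits above the other young lean libraries in all panels but Cox6a2 and Sdha.

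Complex IV held 2 of the 3 subunits that passed. Cox5b, a zinc-binding subunit on the matrix side, was at 3596, 2973, 2949 and 3129 in young lean muscle and at 4315, 3857, 3208, 3877 and 4390.0 in young obese muscle. Young obese 3 again was the single obese library below young lean 1. Cox5b rose 1.24-fold (log2 0.31, SE 0.093, adjusted p = 0.0382 by limma, n = 5 and 4). In aged muscle it was at 2685, 3435, 3191, 3162 and 3291 on the lean diet and at 3442, 3141, 3507, 3331.5 and 3848 on the high-fat diet. These overlapped, with a log2 change of 0.13 (SE 0.087, adjusted p = 0.61 by limma). Cox5a, a different subunit of complex IV, was at 0.17 in young and 0.027 in aged mice.

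Cox7a1, the form of subunit VIIa found in heart and skeletal muscle, was at 1959.6, 1561, 1419.9, 1859 and 1699.9 in young obese muscle and at 1221, 1168, 1161, 1347 and 1432 in aged obese muscle. Aged obese 5 was the single aged library above the lowest young one. Cox7a1 fell to 0.75 of the young value (log2 change -0.42, SE 0.13, n = 5 and 5), with an adjusted p of 0.0465 by limma. In young lean muscle it was at 1653, 1202, 1236 and 1231, and in aged lean muscle at 931, 1203, 1512, 1371 and 1591, which overlapped (log2 change -0.022, SE 0.14). The diet change in young mice was 0.36 (SE 0.14, adjusted p = 0.095 by limma) and the interaction -0.40 (SE 0.19, adjusted p = 0.21), neither past the threshold. Cox7a2, the widely expressed form, was at 0.23 for the diet in young mice and -0.26 with age on the high-fat diet (adjusted p = 0.15 by limma).

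Cox6a1 had the widest spread within groups after Cox4i2, with an SD of 0.28 on the log2 scale. In young lean muscle it was at 635, 296, 378 and 349, and in young obese muscle at 546, 395, 518, 517 and 559.5. Young lean 1 was above every young obese library and the other young lean libraries were below them all. The log2 change was 0.34 (SE 0.17, adjusted p = 0.19 by limma). Cox6a2, its muscle form, was at 16710, 17424, 16304 and 14405 in young lean muscle and at 16107, 17568, 12659.5, 15444 and 17531.5 in young obese muscle, a log2 change of -0.038 (95% interval -0.26 to 0.18). It was also one of the 3 subunits with a positive change with age on the high-fat diet, at 0.058.

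Cox4i1, the main form of subunit IV, was at 0.099 for the diet in young mice and -0.22 with age on the high-fat diet (SE 0.086, adjusted p = 0.11 by limma). Cox4i2, a form best known from lung, was close to the filter at 11.4 to 26.1 in young lean, 16.0 to 35.0 in young obese, 9.07 to 30.6 in aged lean and 20.8 to 32.6 in aged obese muscle. Its log2 change for the diet was 0.44 in young (SE 0.32) and 0.59 in aged mice (SE 0.30, adjusted p = 0.48 by limma), and both pairs of groups overlapped. Cox8a and Cox8b, the widely expressed and the muscle form of subunit VIII, were at 0.12 and 0.11 for the diet in young mice and at -0.15 and -0.15 with age on the high-fat diet.

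For Cox7a2l young lean and aged lean muscle did not overlap, while each other pair of groups compared did, and no other subunit of the 45 had a pair of groups apart. It was at 1807, 1634.6, 1777 and 1679 in young lean muscle and at 1474, 1532, 1633.1, 1518 and 1571 in aged lean muscle. The lowest young and the highest aged library were nearly equal. The share of all genes with groups apart was not counted, so this is only a description. The log2 change with age on the lean diet was -0.16 (SE 0.063, adjusted p = 0.16 by limma), which did not pass, and 4.08% of all genes did. On the high-fat diet the age change was -0.047.

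Ratios of 2 forms of a subunit within a library do not depend on the scaling between libraries, and for the 4 complex IV pairs they overlapped between groups in all comparisons. Cox6a2/Cox6a1 was 42.4 ± 13.3 in young lean, 31.9 ± 7.51 in young obese, 35.5 ± 5.15 in aged lean and 39.7 ± 5.62 in aged obese muscle (SD). Cox7a1/Cox7a2 was 1.06 ± 0.075, 1.16 ± 0.12, 1.06 ± 0.13 and 1.04 ± 0.068 in the same order. Cox8b/Cox8a was 4.81 ± 0.81, 4.77 ± 0.58, 4.38 ± 0.28 and 4.75 ± 0.58, and Cox4i2/Cox4i1 was between 0.00178 and 0.00556 in every library. These are ratios of values not divided by length, so they compare groups and not the amounts of the 2 forms.

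**Figure D4:**
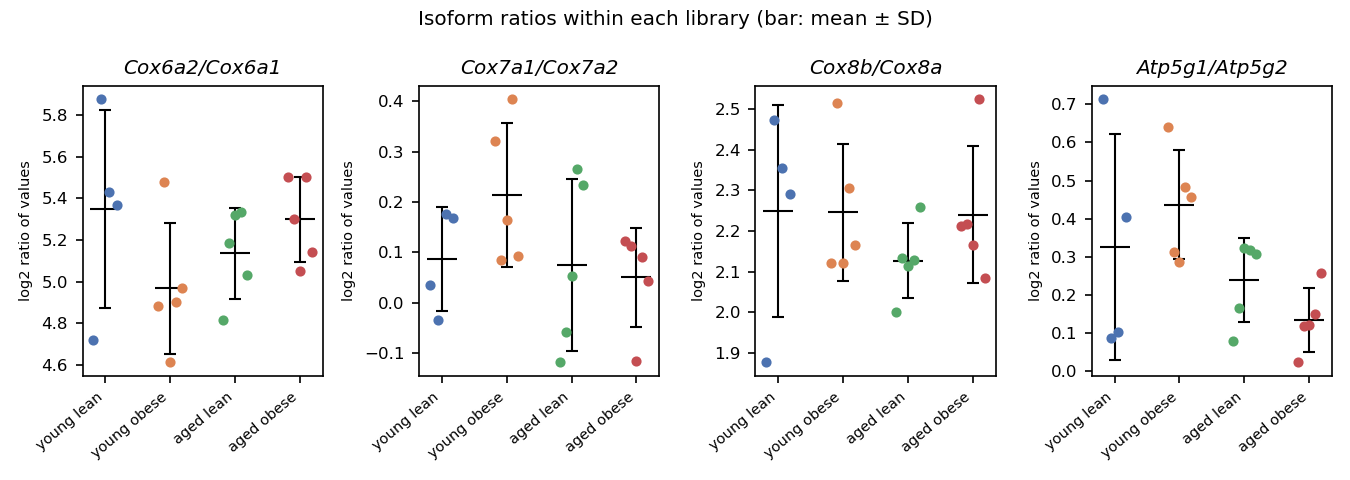
Points are the log2 ratio of 2 subunit values within each library for 4 pairs, by group, with mean ± SD as bars. The first 3 pairs overlap in every comparison. For Atp5g1/Atp5g2, chosen after values were seen, the aged obese libraries (1.02 to 1.20 as plain ratios) lie below the young obese ones (1.22 to 1.56). The ratios computed but not shown overlap in every comparison.

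In complex V no subunit passed, while 17 of 17 were negative with age on the high-fat diet. Of these, 9 had an unadjusted p under 0.05, the level at which 13.5% of all genes were lower. The subunits moved together within libraries, so these are not separate trials. In the catalytic head, Atp5a1 was at 0.14 for the diet in young mice and -0.054 with age on the high-fat diet, and Atp5b at 0.093 and -0.098. Atp5b was 39580 ± 3745 in young lean, 42240 ± 4197 in young obese, 37960 ± 3900 in aged lean and 39340 ± 1841 in aged obese muscle. In the central stalk, Atp5d, the delta subunit, was at 0.22 in young mice (SE 0.096, adjusted p = 0.13 by limma) and at -0.25 with age on the high-fat diet (SE 0.090, adjusted p = 0.084).

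The c ring, which turns as protons pass, is encoded by 3 genes for the same mature protein, Atp5g1, Atp5g2 and Atp5g3. Atp5g1 was at 6317, 5167, 4639.6, 5687 and 5977 in young obese muscle and at 4107, 4089.6, 4461, 4366 and 5088 in aged obese muscle. Aged obese 5 was the single aged library inside the young range. The log2 change was -0.33 (SE 0.11, adjusted p = 0.066 by limma), beside -0.23 on the lean diet (SE 0.12, adjusted p = 0.25), which was -0.11 without young lean 1. Atp5g3 was at -0.31 and Atp5g2 at -0.023 with age on the high-fat diet. The ratio Atp5g1/Atp5g2, chosen after values were seen, was 1.56, 1.24, 1.22, 1.40 and 1.37 in young obese and 1.02, 1.09, 1.09, 1.11 and 1.20 in aged obese muscle, with no overlap. It was 1.27 ± 0.27 in young lean and 1.18 ± 0.089 in aged lean muscle. Of all ratios computed, only this one had groups apart, and only with age on the high-fat diet. Atp5g3/Atp5g2, Cox6a2/Cox4i1 and Cyc1/Cox6a2, also computed, overlapped in every comparison. Atp5g3/Atp5g2 differed by -0.28 on the log2 scale with age on the high-fat diet. Atp5g1 and Atp5g2 each share over 50% of their transcript with pseudogenes, so the level of each, and with it their ratio, is uncertain.

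The peripheral stalk (Atp5pb, Atp5h, Atp5j and Atp5o) had medians of 0.16 for the diet in young mice and -0.18 with age on the high-fat diet, led by Atp5j at 0.21 and -0.24. The 5 membrane subunits (Atp5j2, Atp5k, Atp5l, Atp5md and Atp5mpl) had medians of 0.069 and -0.16. Atp5l, a subunit near the dimer interface, was at -0.083 for the diet in young mice (95% interval -0.27 to 0.10).

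The counts depended on young lean 1. Without it, 11 of 45 subunits rose on the high-fat diet in young mice, while 20.2% of all genes passed, and the median log2 change was 0.21. Cyc1 was then at 0.48 (adjusted p = 0.0051 by limma), Uqcrc1 at 0.41 (0.0065), Cox6a1 at 0.57 (0.0068), Cox5b at 0.37 (0.011) and Cox7a1 at 0.47 (0.024), and Cox5a, Cox7a2, Atp5d, Atp5g3, Atp5h and Atp5j passed too. With age on the high-fat diet 6 fell (Uqcrfs1, Uqcrc1, Cox7a1, Atp5d, Atp5g1 and Atp5j), where 12.5% of all genes passed. In the interaction 1 passed where 12.9% of all genes did, Cox6a1, at -0.68 (adjusted p = 0.019 by limma), beside -0.46 (adjusted p = 0.25) with all libraries. Without both young lean 1 and aged lean 1, a setting added after the data were seen, 15 rose in young mice (20.1% of all genes passed), 10 fell with age on the high-fat diet (12.6%) and 6 passed in the interaction (11%), Cox7a1 among them at -0.63. Leaving out young lean 2, 3 or 4 or young obese 1, 4 or 5 instead left 0 subunits past the test in young mice. With age on the high-fat diet, 8 fell without young obese 3 (6.1% of all genes passed), 3 without aged obese 5 (9.49%) and 2 without aged lean 1 (8.8%), and 0 without young lean 3, young obese 1, 4 or 5, aged lean 2 or 4, or any 1 of aged obese 1 to 4. No label or header gives a reason to leave out any of these libraries.

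**Figure D5:**
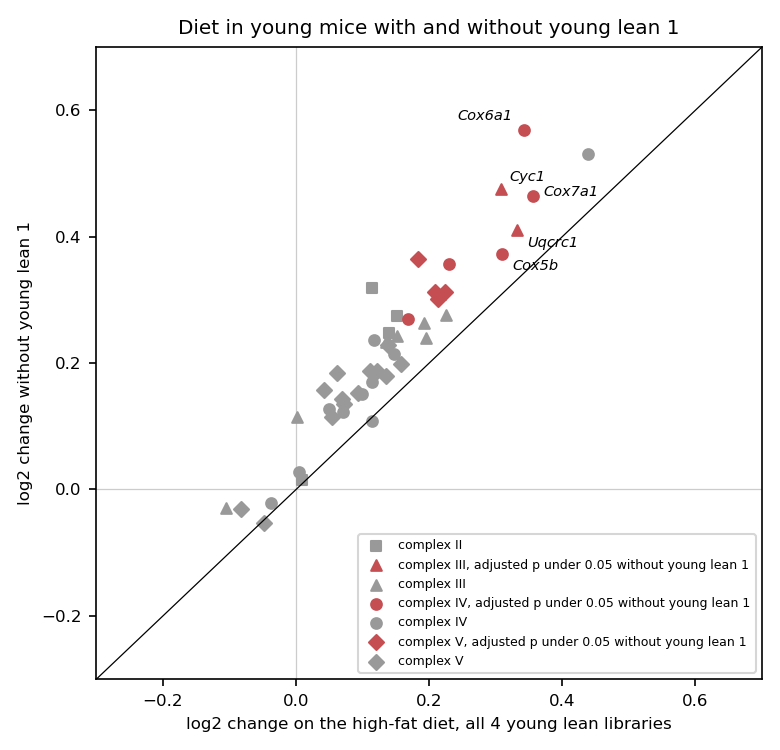
Each point is 1 of 45 tested subunits, with its log2 change on the high-fat diet in young mice from all libraries (x axis) and without young lean 1 (y axis), a shape for each complex, and red for an adjusted p under 0.05 without it. Nearly all points lie above the diagonal, and 11 are red.

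Markers of other tissue moved with the same comparisons. Summed values of 6 tendon markers (Tnmd, Scx, Mkx, Cilp2, Chad and Kera) were 518 to 1055 in young lean, 1869 to 4849 in young obese, 360.3 to 1139 in aged lean and 351 to 1323 in aged obese muscle. Of them 4 of 6 rose with the diet in young mice and 5 of 6 fell with age on the high-fat diet, and none was at 0 in any library. With the mean tendon marker level as a covariate Uqcrc1 was at 0.33 and Cox5b at 0.24 for the diet in young mice, with 0 subunits and 0 of all genes past the test. Cox7a1 was at -0.28 with age on the high-fat diet. Every young obese library (1869 or more) lay above every other library (1323 or less) in tendon markers. The tendon level and the young obese group therefore cannot be told apart by this covariate. Summed values of 6 slow fibre markers (Myh7, Myl2, Myl3, Tnni1, Tnnc1 and Tnnt1) were 9933 to 20070 in young lean, 9223 to 22830 in young obese, 6791 to 16240 in aged lean and 15810 to 49210 in aged obese muscle, and 4 of 6 rose with the diet in aged mice and 2 of 6 with age on the high-fat diet. With the slow fibre level as a covariate 16 subunits fell with age on the high-fat diet, with a median of -0.30, where 9.45% of all genes passed. The median for the diet in aged mice went from 0.043 to -0.14. The mean log2 deviation of the slow markers was 0.86 in aged obese muscle. It was -0.22 in young lean, -0.081 in young obese and -0.61 in aged lean muscle. This covariate therefore cannot be fully told apart from the aged obese group.

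Of 7 macrophage, endothelial, Schwann, adipocyte, red cell, cardiac and fast fibre lists, few markers passed in the 2 comparisons with called subunits. For the diet in young mice this was Cdh5 of 4 endothelial markers (0.29), and with age on the high-fat diet Pmp22 of 4 Schwann markers (-0.68). None of 6 macrophage, 6 adipocyte, 3 red cell or 7 fast fibre markers passed in either. Of the cardiac markers only Myh6 was tested and it did not pass. Among general muscle markers Des rose by 0.33 with age on the high-fat diet. In other comparisons the macrophage marker Adgre1 was lower in the interaction and the adipocyte marker Lep higher in aged obese than in young lean muscle. Summed macrophage markers were 1215 to 3495 in young lean, 1849 to 8233 in young obese, 2578 to 10280 in aged lean and 1831 to 3460.0 in aged obese muscle. The part of these cells in the subunit values was not tested.

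Around the complexes, single genes passed. Of all genes tested, 11.0% passed for the diet in young mice and 9.02% with age on the high-fat diet. The gene lists are short and were not tested against these shares, so no contrast between lists is drawn. Of 14 citrate cycle enzymes none passed in any comparison. For the diet in young mice 3 were higher at an unadjusted p under 0.05, beside 14.6% of all genes. With age on the high-fat diet 4 were lower at that level, beside 13.5% of all genes. Cs, citrate synthase, was at 0.15 for the diet in young mice and -0.14 with age on the high-fat diet. Of 9 genes for ATP exchange and uncoupling, Ucp3, an uncoupling protein of muscle, rose with the diet in young mice, from 1811 ± 1049 to 4521 ± 1417 (log2 1.42, SE 0.29, adjusted p = 0.0069 by limma), and fell with age on the high-fat diet to 1829 ± 178 (log2 change -1.26). Ucp2 rose by 0.97 in young mice and Slc25a5, an ADP/ATP carrier, fell by 0.42 with age on the high-fat diet. Slc25a4, the muscle ADP/ATP carrier, was at 0.22 and -0.24 without passing.

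Of 17 electron carrier and coenzyme Q genes 1 passed: Coq7, a hydroxylase of coenzyme Q synthesis, rose by 0.59 (SE 0.16) with the diet in young mice. Cycs, cytochrome c, was at 0.23 there and at -0.37 with age on the high-fat diet, with no adjusted p under the threshold. Among 25 tested assembly factors of complex IV, Higd2a rose by 0.20 in young mice and Taco1, which activates translation of a mitochondrial complex IV subunit, fell by 0.41 with age on the high-fat diet. None of 4 assembly factors of complex II and none of 6 of complex III passed. Of 6 for complex V, Atpaf2, a chaperone of the alpha chain, fell with age on the lean diet, from 576 ± 26.2 to 439 ± 31.7 (log2 change -0.39, SE 0.072, adjusted p = 0.0055 by limma), and was lower in aged obese than in young lean muscle (-0.29).

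Of 13 regulators of mitochondrial genes, Esrra, the receptor whose ERR motif was counted above, rose with the diet in young mice, from 1261 ± 289 to 1794 ± 228 (log2 0.52, SE 0.12, adjusted p = 0.013 by limma). That motif was in windows of Atp5e, Atp5g3, Atp5k, Atp5l and Sdhd, not of Uqcrc1 or Cox5b. Any link between Esrra and the subunits was not tested. Ppard, a receptor for fatty acids, fell with the diet in young mice by 0.45 and with age on the lean diet by 0.56. It was lower in aged obese than in young lean muscle (-0.43), and passed in the interaction (0.59, adjusted p = 0.038 by limma). Of 15 genes of mitochondrial structure, Higd2a, counted above, rose and Hspe1, a chaperone, fell by 0.54 with the diet in young mice, Apool, a cristae protein, fell by 0.29 with age on the high-fat diet, and Hspe1 was lower in aged obese than in young lean muscle (-0.62).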

How the data were processed

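The deposited table gives 1 signal per gene and library, which per the labels the authors had normalized. The submitters' processing notes list STAR 2.78a, DESeq2, Partek and mm39 but not what each was used for, and the counting program and annotation are not known here. One read was worth 0.903 to 1.09 units. Taken up to 200, only 85.2 to 86.3% of values came within 0.02 of a whole read, so a count test was not made. Depth is estimated from these steps.

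The log2(value + 1) of 13367 genes with a mean of at least 10 (1340 left out) was fitted with limma 3.58.1 (limma-trend, R 4.3.3) in 1 model of 19 libraries and 4 group means, with 15 residual and 4.37 prior degrees of freedom. The 6 comparisons were read from it, each adjusted by Benjamini-Hochberg over all genes. Fold changes on this scale understate those of low genes. The code was tested on simulated data. Members, lists and alternatives were chosen with earlier results of these data known. Named are members past the threshold (up to 8, or the 4 with the lowest p), 16 fixed subunits, partner genes past the threshold and subunits with an outlying library, and the text prints the values that bear on each comparison. Gene lengths and shared stretches (blastn 2.17.0) are from GENCODE M21, on GRCm38, so no coordinates but those of RefSeq promoters (GRCm38.p6) are given. Motifs, depth and figures used Python 3.11.15, numpy 2.4.6, pandas 2.3.3 and matplotlib 3.10.9. Alternatives covered the pseudocount, filter, scaling, library weights, robust variance, the groups alone, tendon and slow fibre covariates and each library left out. Leaving out young lean 1 and aged lean 1 together was added after the data were seen.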

Additional observations from a re-analysis of the deposited data

Results flagged for a closer look

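Of 188 sets of libraries examined for a library far from the rest of its group, 184 of them subunits by group, 9 held one, where chance alone gives about 1 in 20. Young lean 1 was high for Sdhb (7894, others 5549 to 5777), for Cox7a1 (1653, others 1202 to 1236) and for Atp5g3 (6239, others 3619 to 3920). Aged lean 1 was low for Uqcrc1 (8104, others 10270 to 10560), Uqcrq (2786, others 3556 to 3767), Atp5a1 (25140, others 31160 to 33620) and Atp5c1 (8061, others 9767 to 10440). Young obese 2 was low for Cox6a1 (394.5, others 517.1 to 559.5), and aged obese 5 was high for Cox7a2l (1935, others 1566 to 1659). Young lean 1 and aged lean 1 account for 7 of the 9. A count of 9 in 188 is about what chance gives, and the subunits moved together within libraries, so the sets are not separate trials.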

How the results depend on the processing

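The count of subunits past the threshold for the diet in young mice, 2 as reported, was 0 with median centring, 0 with the 2 young groups alone, 0 with the tendon score as a covariate, 19 with library weights (25.6% of all genes) and 15 without young lean 1 and aged lean 1. Leaving out 1 library at a time gave 0 to 11. With age on the high-fat diet, 1 as reported, it was 0 with median centring, 0 with the tendon score, 4 with the 2 obese-diet groups alone, 16 with the slow fibre score, 19 with library weights (21.2% of all genes) and 10 without young lean 1 and aged lean 1, and 0 to 8 without 1 library. For the interaction, 0 as reported, it was 5 with library weights (18.7% of all genes), 6 without young lean 1 and aged lean 1 (11% of all genes) and 0 to 1 without 1 library, the 1 being without young lean 1 (12.9% of all genes). The other 3 counts were 0 in every setting run. The median log2 change moved to -0.14 for the diet in aged mice and to -0.27 for the interaction with the slow fibre score, and to -0.17 for aged obese against young lean muscle. Medians also changed sign in other settings. For the diet in aged mice the median went from 0.043 to -0.016 without aged lean 1, with or without young lean 1. For age on the lean diet it went from -0.063 to 0.0049 without young lean 1, to 0.068 without young lean 1 and aged lean 1 and to 0.0039 with library weights. For aged obese against young lean muscle it went from -0.034 to 0.045 without young lean 1, with or without aged lean 1, and to 0.015 with library weights. Uqcrc1 and Cox5b each lost the call in 9 of 31 settings and Cox7a1 in 12 of 31, with log2 changes of 0.27 to 0.46, 0.24 to 0.40 and -0.54 to -0.28. The cause of these shifts was not tested, and the tendon score cannot be told apart from the young obese group. Nor can the slow fibre score be fully told apart from the aged obese group. No paired analysis was possible because the labels pair no libraries across groups. What depth or the number of libraries limits was not tested.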
